A study of Salmo salar with 57 samples.

Results

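Protein synthesis needs tRNAs that carry amino acids, and it needs ribosomes. The genes described here are the 52 array probes that the study's list of differentially expressed (DE) probes places in 3 KEGG pathways, out of 14841 probes on the array. They are 21 probes for tRNA charging (aminoacyl-tRNA biosynthesis, ko00970), 21 for ribosome biogenesis in eukaryotes (ko03008) and 10 for the ribosome itself (ko03010). A probe entered that list because its level changed in at least 1 diet against the fish meal diet. All differences between the diets are therefore given for these probes as a description, without a test. The list holds none of the probes of these pathways that did not change, so the share of a whole pathway that moved cannot be read from it.

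Aminoacyl-tRNA ligases join each amino acid to its own tRNA, and a cell that makes more protein or runs short of an amino acid commonly raises their transcripts. Ribosomes are built in the nucleolus, where the precursor rRNA is cut and modified by small nucleolar RNPs and folded by a large complex called the small subunit processome, and GTPases and other assembly factors then bring the large subunit to maturity. The epithelium of the fish intestine is renewed from dividing cells at the base of the folds, which makes these genes a common readout of growing or regenerating tissue.

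The arrays measured the distal intestine of Atlantic salmon (*Salmo salar*) post smolts, 1 fish per array, after 4 weeks of feeding. All diets except FM contained extracted soybean meal at 200 g per kg, which is known to cause an enteropathy of the distal intestine. CV, CU, KM and SC also contained 200 g per kg of a microbial ingredient, and each of these groups had 10 fish. The ingredient was the microalga *Chlorella vulgaris* in CV and a yeast in the others, *Candida utilis* in CU, *Kluyveromyces marxianus* in KM and *Saccharomyces cerevisiae* in SC. SBM, with 7 fish, had soybean meal and no microbe. FM, with 10 fish, had fish meal at 710 g per kg and neither soybean meal nor microbe. SBM had 510 g of fish meal per kg and the microbial diets had less, so that a microbe and a lower fish meal content came together and cannot be told apart. Each diet was fed to 3 tanks, the authors left out 1 SBM tank, and the tank of a fish is not in the labels. Spreads and p-values below are between fish treated as independent.

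All 52 probes were bright enough to be tested, and 51 of them were measured on every array. RPP38 was missing on 1 CU array, where its value was imputed. Levels are log2 normalized intensities, a fold change (FC) is the difference of mean log2 levels, diet minus FM, and ± after a log2 FC is its standard error. To be called, a probe had to pass the nested F method of limma at an adjusted p of 0.05 and to have a log2 FC of 0.4 or more in either direction. Every array was scaled to the same distribution, yet the median log2 FC over all 12065 probes tested was not 0 in each diet. CV had the highest, 0.17, followed by KM with 0.14, SBM with 0.09, SC with 0.06 and CU with −0.01. Scaling by the 75th percentile of each array instead brought the medians to between −0.08 and −0.02 in all 5 diets. CV and KM, with the highest medians, also had the fewest spots set to missing, and CU, with the lowest, the most. The median over all probes depends on the scaling and is given as the level beside which the members' values stand.

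One array stood apart. FM fish 3 had 3320 spots set to missing because they were too dim or uneven. The median over all arrays was 2024, and the next FM array had 2495. FM fish 3 held the lowest value of all 57 fish for 23 of the 52 probes, and FM fish 4 for 10. The share of all probes tested that were lowest in these fish was not counted. For SYIC, SYYM, WDR36, RBM28, NXT2, HEAT1 and RL4, 1 FM fish lay 0.60 to 1.21 below the other 56 fish, which lowers the FM mean. Counts of calls, medians and mean scores against FM are given without FM fish 3 as well, and FM fish 4 stays in them.

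By their median log2 FC the 3 pathways were highest in SC and SBM. The medians in CV, CU and KM were also above 0, but after the median over all probes was taken off they were 0.11 for tRNA charging, 0.04 for biogenesis and −0.07 for the ribosome in CV, and 0.12, 0.09 and 0.04 in KM. In CU they were 0.24, 0.21 and 0.15, in SBM 0.43, 0.38 and 0.33, and in SC 0.66, 0.41 and 0.41. Of the 52 probes, 38 were called higher and 4 lower in SC, and 31 higher and 3 lower in SBM. Over all probes tested, 22.5% were called in SC (13.2% higher and 9.28% lower) and 22.3% in SBM (13.7% higher and 8.62% lower), but nothing is read from these shares because the same contrasts chose the probes. CV had 3 of the 52 called higher, where 10.6% of all probes were called (9.99% higher and 0.605% lower). KM also had 3 called higher, where 11.2% were called (9.3% higher and 1.86% lower). CU had 1 called higher and 1 lower, where 5.36% were called (2.02% higher and 3.34% lower). Without FM fish 3, the counts were 30 higher and 4 lower in SC, and 25 higher and 3 lower in SBM, with 21.4% of all probes called in each. CV then had 2 higher, where 7.79% of all probes were called, KM 3 higher (9.28%), and CU 1 lower (5.72%). With all fish, 1278 of all probes tested were called in CV and 1347 in KM. The study reported fewer DE probes in both of these diets, and similar numbers in CU, SC and SBM. The reason was not tested.

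The split of the calls into higher and lower depended on the scaling. Of all probes called, 58.7% were higher in SC, 61.3% in SBM, 94.3% in CV, 83.3% in KM and 37.7% in CU. With the 75th percentile scaling the share was 46.4% for SC, 41.3% for SBM, 43.8% for CV, 43.2% for KM and 38.9% for CU, and 31 of the 52 probes were called higher and 4 lower in SC, and 25 higher and 4 lower in SBM. None of the 52 was then called higher in CV or KM, while 1 was called lower in CV and 2 in KM. Of the 12065 probes tested, 1207 were then called higher and 1392 lower in SC, and 1243 and 1769 in SBM. CV had 252 higher and 323 lower, and KM 400 and 526. After subtracting from each diet its median over all probes, 28 were called higher and 5 lower in SC, and 19 higher and 4 lower in SBM. Over all probes, 1159 were then called higher and 1247 lower in SC, and 1087 and 1251 in SBM. The 5 comparisons share the FM fish, so that likeness between them is not read as a result. Calls in both SC and SBM were made for 27 probes, in SC alone of these diets for 15 and in SBM alone for 7. MPP10, RBM28 and NOP56 were called in no diet here. The arrays measured pieces of tissue, in which more cells of a type and more RNA per cell cannot be told apart.

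**Figure D1:**
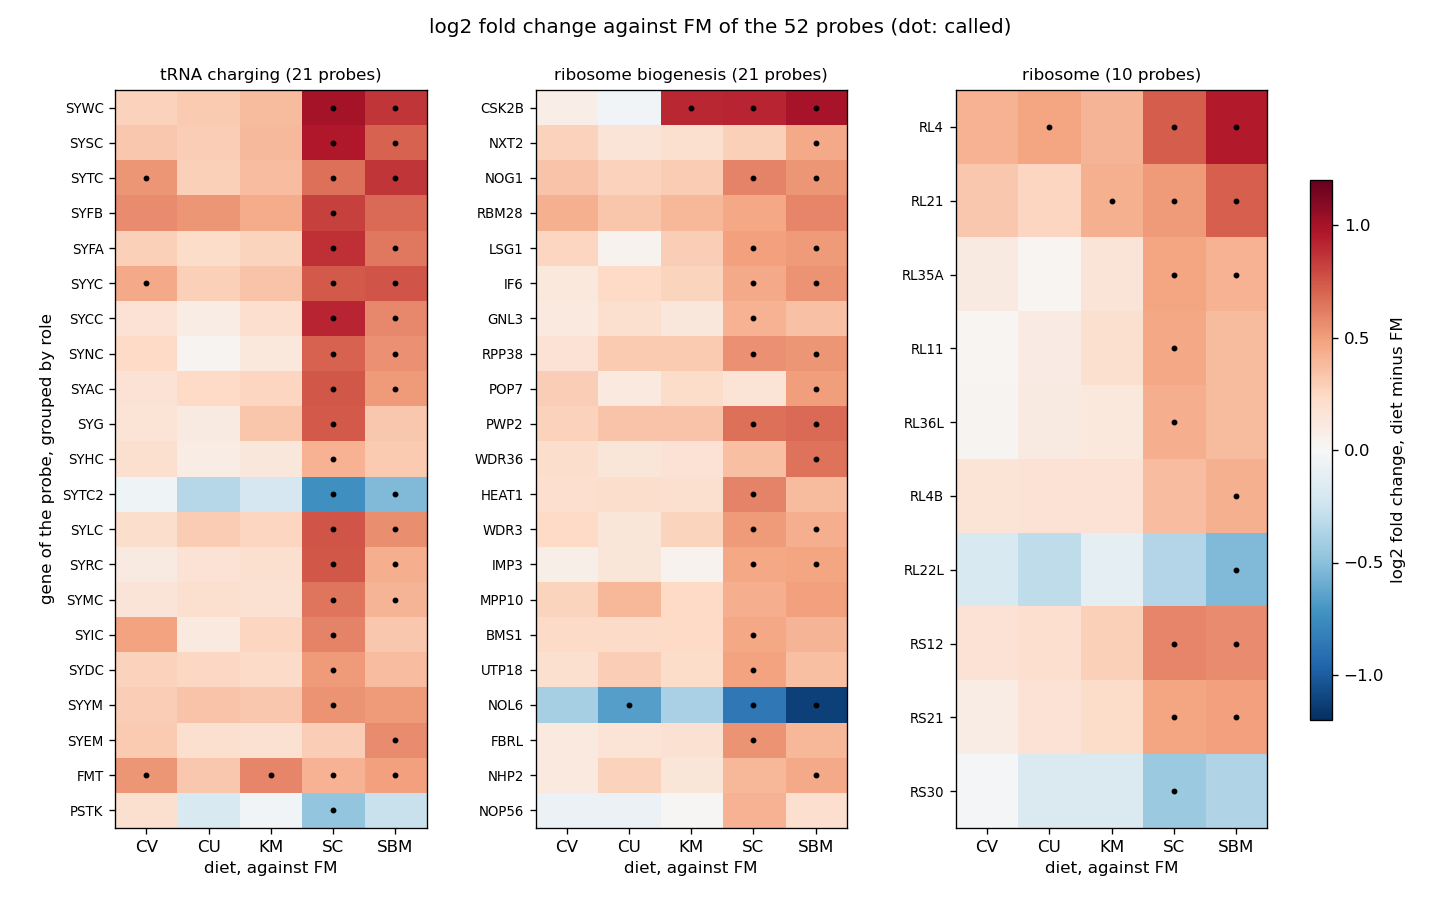
Colour gives the log2 fold change against FM of each of the 52 probes (down the page, grouped by role within a pathway) in the 5 soybean diets (across), and a dot marks a probe called in that diet. Red fills the SC and SBM columns, with 38 and 31 probes called higher, and the probes for SYTC2, PSTK, NOL6, RL22L and RS30 are blue in both.

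The tRNA charging probes had the largest shift of the 3 pathways in SC. In SC their median log2 FC was 0.71, in SBM 0.51, in CV 0.28, in KM 0.25 and in CU 0.22. In SC 18 of 21 were called higher and 2 lower, and in SBM 13 were called higher and 1 lower. Without FM fish 3 the medians were 0.65 in SC, with 14 called higher, and 0.45 in SBM, with 11, while CV had 0.23, KM 0.20 and CU 0.18.

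Among the 17 probes for cytoplasmic ligases, 16 were called higher and 1 lower in SC, and 11 higher and 1 lower in SBM. The tryptophan ligase SYWC had the largest log2 FC. Its log2 level ran from 10.56 over a median of 10.99 to 11.31 in SC fish and from 10.57 over 10.86 to 11.03 in SBM fish, against 9.59, 10.07 and 10.23 in FM fish. Every SC and SBM fish was thus above every FM fish, while 5 CV, 6 CU and 6 KM fish were. For SYWC the log2 FC reached 1.00 ± 0.12 in SC, 0.86 ± 0.13 in SBM, and between 0.28 and 0.38 in the other diets.

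The serine ligase SYSC and the alpha subunit of the phenylalanine ligase, SYFA, did not overlap with FM either. SYSC had 10.74 at the lowest, 11.21 at the median and 11.51 at the highest in SC, and 10.64, 10.94 and 11.05 in SBM, against 9.55, 10.32 and 10.52 in FM. This gave a log2 FC of 0.96 ± 0.11 in SC and 0.71 ± 0.12 in SBM. SYFA, the brightest of these 3 probes, spread little within a diet, and its log2 levels ran from 12.53 over 12.98 to 13.21 in SC and from 12.54 over 12.69 to 12.96 in SBM, against 11.82, 12.10 and 12.27 in FM. The SYFA differences, 0.87 ± 0.08 in SC and 0.63 ± 0.09 in SBM, had among the smallest errors of the 52.

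SYFB, the beta subunit of the same phenylalanine ligase, was far more scattered. Its log2 levels were 11.02, 11.86 and 12.22 in SC and 10.55, 11.77 and 12.11 in SBM, against 9.90, 11.02 and 11.67 in FM, and all diets overlapped with FM. Across fish, after the mean of each diet was taken off, SYFB followed the mean of the other tRNA charging probes with r = 0.22 (57 fish), against 0.80 for SYFA. The call of SYFB in SC (log2 FC 0.82 ± 0.23) was lost with slide as a block, without the filter on dim spots and without FM fish 3, among others. The remaining cytoplasmic ligases outside the multisynthetase complex were those for cysteine (SYCC, 0.91 in SC and 0.58 in SBM), alanine (SYAC, 0.75 and 0.51), tyrosine (SYYC, 0.74 and 0.76), glycine (SYG, 0.74 and 0.32), asparagine (SYNC, 0.71 and 0.55) and histidine (SYHC, 0.42 and 0.32), all called in SC, and all but SYG and SYHC called in SBM. For SYYC a call was made in CV too (0.45), where its log2 levels were 8.79, 9.09 and 9.66 against 8.33, 8.72 and 9.01 in FM. The call of SYNC in SBM was lost under 12 of the alternatives.

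The threonine ligases went opposite ways. SYTC, the main cytoplasmic enzyme, had log2 levels of 7.08, 7.57 and 7.89 in SC and 7.24, 7.88 and 8.01 in SBM, against 6.60, 6.89 and 7.19 in FM, or 0.66 ± 0.15 in SC and 0.86 ± 0.16 in SBM as log2 FC. All SBM fish and 8 of 10 SC fish were above every FM fish. SYTC2, a second cytoplasmic threonine ligase whose name in the annotation carries the word probable, had 5.21, 5.92 and 6.62 in SC and 5.76, 6.20 and 6.47 in SBM, against 6.35, 6.72 and 7.29 in FM. It came to −0.74 ± 0.13 in SC and −0.53 ± 0.14 in SBM as log2 FC, and 8 SC and 6 SBM fish were below every FM fish. Both threonine probes are dim, and under the normexp background correction the log2 FC of SYTC2 shrank to −0.29 in SC and −0.23 in SBM and was called in neither, while that of SYTC in SC shrank to 0.35 and was not called.

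The ligases for arginine, aspartate, isoleucine, leucine and methionine sit together in the multisynthetase complex in animals. All 5 were called higher in SC and 3 of them in SBM, with median log2 FC of 0.64 in SC and 0.40 in SBM. Leucine ligase SYLC (0.75 ± 0.10 in SC, 0.56 ± 0.11 in SBM) and arginine ligase SYRC (0.75 ± 0.11 and 0.43 ± 0.12) led, and the call of SYRC in SBM was lost under 3 of the alternatives. Methionine (SYMC, 0.64 and 0.40), isoleucine (SYIC, 0.60 and 0.32) and aspartate (SYDC, 0.51 and 0.37) followed. For SYIC 1 FM fish was at 3.44, and all other fish were at 4.65 or above. AIMP1 and AIMP2, scaffold proteins of that complex that are not among the 52, had log2 FC of 0.61 and 0.66 in SC and 0.49 and 0.40 in SBM, and AIMP2 was not called in SBM.

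Mitochondrial and other enzymes of tRNA charging had 4 probes. The mitochondrial tyrosine ligase SYYM had a log2 FC of 0.54 ± 0.15 in SC and 0.51 ± 0.17 in SBM and was called in SC, while the mitochondrial glutamate ligase SYEM (0.29 ± 0.10 and 0.57 ± 0.11) was called in SBM. For SYYM 1 FM fish was at 6.98, and all other fish were at 7.98 or above. The FM mean of SYYM was 8.55 and its FM median 8.80. FMT, which formylates the initiator methionyl-tRNA of mitochondria, was called higher in more diets than any other of the 52: CV (0.53), KM (0.58), SC (0.42) and SBM (0.50). Its log2 levels in KM were 6.60, 7.16 and 7.54, against 5.91, 6.61 and 7.08 in FM, and 6 of 10 KM fish were above every FM fish. PSTK phosphorylates the seryl-tRNA on which selenocysteine is made. It was called lower in SC, with log2 levels of 4.32, 5.04 and 5.37 in SC against 5.04, 5.35 and 6.09 in FM, but it is the dimmest of the 21, and under normexp its log2 FC in SC was −0.09 in place of −0.48.

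The direct contrast of SC with SBM holds the yeast and the lower fish meal content together, beside the same soybean meal. Of the 21 tRNA charging probes 15 were higher in SC, with a median log2 difference of 0.15 and the largest for the glycine ligase SYG (0.41 ± 0.16). None of the 52 was called in this contrast, in which 0.307% of all probes were called. Against SBM, tRNA charging probes were mostly lower in CV (17 of 21), CU (19) and KM (17). The median log2 difference was −0.25 for CV, where that over all probes was 0.08, −0.25 for CU (−0.10 over all) and −0.24 for KM (0.04 over all). Since the SBM fish helped to choose the probes, these values too are a description. Counted over the 52 probes, 7 were called in CV (10.8% of all probes), 7 in CU (7.28%) and 5 in KM (8.71%).

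Ribosome biogenesis probes had a median log2 FC of 0.47 in both SC and SBM, while it was 0.20 for CV, 0.22 for KM and 0.19 for CU. In SC 13 of 21 were called higher and 1 lower, and in SBM 12 higher and 1 lower. Without FM fish 3 the counts were 10 and 10 higher and 1 and 1 lower, with medians of 0.39 in SC and 0.41 in SBM. In CV the median without this fish was 0.11, in KM 0.16 and in CU 0.13.

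Of the 9 probes for the small subunit processome, which folds and cuts the precursor of the small subunit, 6 were called higher in SC and 4 in SBM, and NOL6 was called lower in both. PWP2, a scaffold of this complex in yeast, led. Its log2 levels were 10.96, 11.37 and 11.81 in SC and 11.20, 11.35 and 11.50 in SBM, against 9.97, 10.71 and 11.11 in FM, and each SBM fish was above each FM fish. As log2 FC this was 0.66 ± 0.13 in SC and 0.68 ± 0.14 in SBM. UTP18, WDR3, IMP3 and BMS1 had 0.47 to 0.51 in SC and 0.36 to 0.47 in SBM, with calls for all 4 in SC and for WDR3 and IMP3 in SBM, and MPP10 had 0.43 and 0.50 without a call. WDR36 (0.37 ± 0.16 in SC, 0.66 ± 0.18 in SBM) and HEAT1 (0.59 ± 0.14 and 0.38 ± 0.16) were called in 1 of these diets each, and the difference between SC and SBM was called for neither.

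NOL6, another processome protein, ran against its complex. Its log2 levels were 7.26, 7.62 and 7.97 in SC and 7.08, 7.40 and 7.64 in SBM, against 8.07, 8.60 and 8.71 in FM. All SC and SBM fish were below all FM fish, and 6 CV, 6 CU and 5 KM fish were below too. The log2 FC of NOL6 was −0.86 ± 0.15 in SC, −1.12 ± 0.16 in SBM and −0.66 in CU, where it was the only one of the 52 called lower. A second NOL6 probe outside the 52, itself on the study's DE lists, went the same way, by −0.60 in SC and −0.62 in SBM. The 2 probes followed each other across fish within diets with r = 0.67. NOL6 did not follow the other 20 biogenesis probes (r = 0.03 over 57 fish), most of which followed the mean of the rest closely (0.90 for UTP18).

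Assembly of the large subunit was represented by 5 probes, of which 4 were called higher in SC and 3 in SBM. NOG1, a nucleolar GTPase of the early large subunit, had log2 levels of 10.04, 10.30 and 10.78 in SC and 9.99, 10.30 and 10.60 in SBM, against 9.29, 9.88 and 10.01 in FM, or 0.59 ± 0.11 in SC and 0.53 ± 0.12 in SBM as log2 FC. The SC fish did not overlap with FM, and 1 SBM fish did. IF6, which keeps the young large subunit from joining the small one, had 0.45 in SC and 0.54 in SBM, and LSG1, a GTPase of the last cytoplasmic steps, had 0.49 and 0.51. RBM28, whose yeast relative is a large subunit factor, had 0.46 ± 0.18 in SC and 0.58 ± 0.19 in SBM and was not called. Its second probe gave 0.41 and 0.57, and was called in CV and SBM. GNL3, a nucleolar GTP-binding protein known from stem cells, was called in SC alone, with 0.42, close to the limit, and lost that call under 5 of the alternative settings. NOP56, a core protein of the methylating small nucleolar RNPs, had a log2 FC of 0.42 in SC too and was not called. None of the 52 probes had its largest log2 FC below the limit of 0.4.

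RPP38, a protein subunit of ribonuclease P and ribonuclease MRP, had log2 levels of 9.72, 10.02 and 10.46 in SC and 9.70, 10.01 and 10.22 in SBM, against 8.95, 9.50 and 9.72 in FM, with log2 FC of 0.54 ± 0.13 and 0.53 ± 0.14. POP7, another subunit of these enzymes, was called in SBM (0.50 ± 0.12) and had 0.16 ± 0.11 in SC. Fibrillarin (FBRL), the rRNA methyltransferase of the nucleolus, had 0.54 ± 0.12 in SC and 0.39 ± 0.13 in SBM, and its second probe had 0.44 and 0.34. NHP2, of the RNPs that make pseudouridine, and the export factor NXT2 were called in SBM alone, with 0.45 each. For NXT2 1 FM fish was at 8.43, and all other fish were at 9.23 or above. For 6 members (SYRC, SYYC, SYNC, RBM28, FBRL and NOL6) the DE lists name another probe of the same gene. All 6 had the same sign in both probes in SC and in SBM. A second probe that did not change has no name here and was not seen, so this likeness is not read as a result. Within diets the probes for SYRC (r = 0.26) and SYNC (r = 0.24) followed each other only weakly. Salmon carry many duplicated genes, so probes of 1 name may report different copies.

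CSK2B, the beta subunit of casein kinase II, had the highest log2 FC of the biogenesis probes and a level that fell into separate clusters. Values of 8 fish lay between 6.85 and 7.70, and those of the other 49 lay between 8.84 and 10.71. The low fish were 3 of 10 CV, 3 of 10 CU and 2 of 10 FM fish, and none was a KM, SC or SBM fish. They lay on 6 slides. In the values the authors normalized, the same 8 fish were also at or below 7.69 and the others at or above 8.93. Above the gap, CSK2B ran from 9.27 to 10.34 in CV, from 8.94 to 10.23 in CU, from 9.22 to 10.24 in KM, from 9.20 to 10.51 in SC and from 9.46 to 10.71 in SBM, against 8.84 to 9.94 in FM. Over all fish its log2 FC was 0.90 ± 0.39 in KM, 0.91 ± 0.39 in SC and 0.99 ± 0.43 in SBM, and the calls were lost under 8, 5 and 7 of the alternatives. CSK2B did not follow the other biogenesis probes (r = 0.08). The gene is listed in 3 other pathways of the study's annotation as well.

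**Figure D2:**
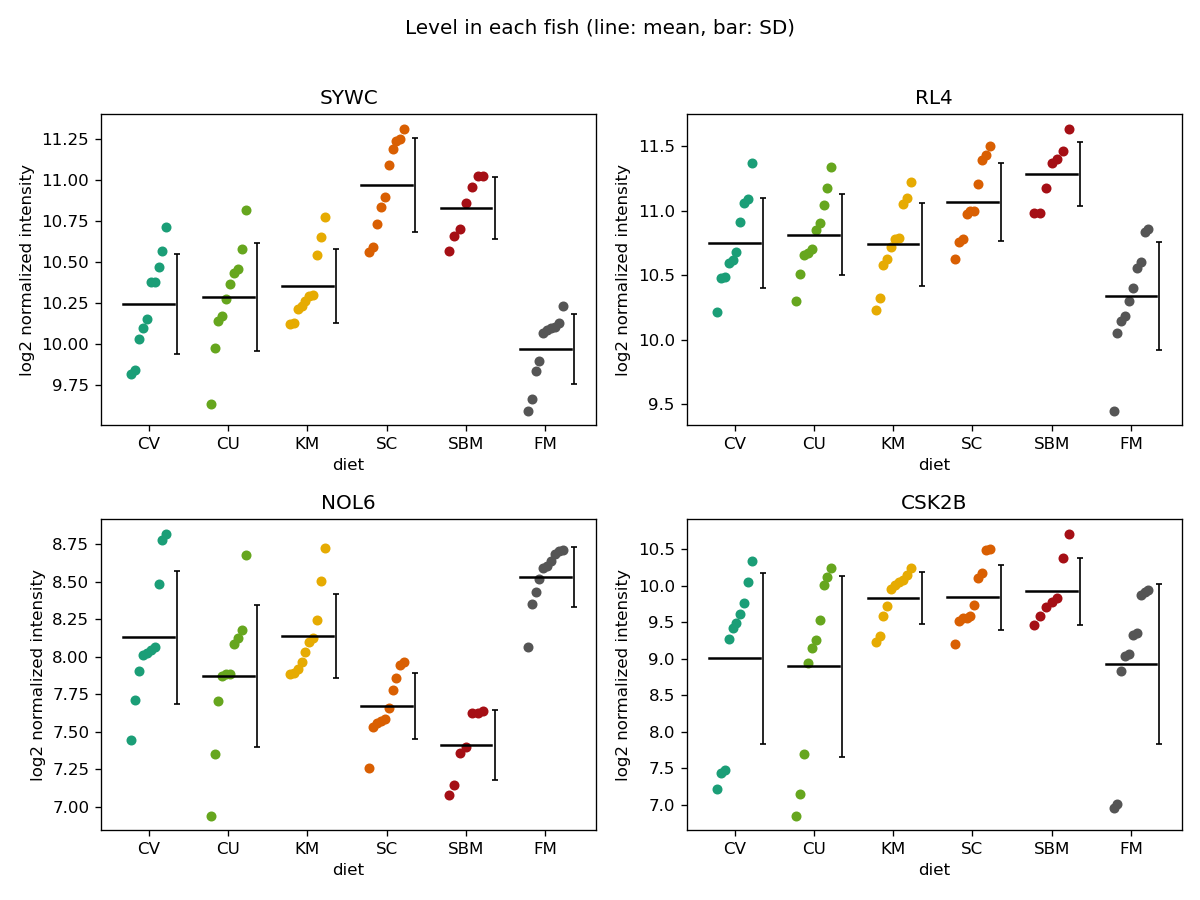
Points are the log2 normalized intensities of single fish for SYWC, RL4, NOL6 and CSK2B by diet, with a line for the mean of the group and a bar beside it for 1 SD on either side. SYWC and NOL6 do not overlap between FM and either SC or SBM, and for CSK2B a separate low cluster of 8 fish appears in CV, CU and FM.

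The median log2 FC of the ribosome probes was 0.47 in SC and 0.42 in SBM. It lay between 0.10 and 0.18 in CV, CU and KM. Without FM fish 3 it was 0.44 in SC and 0.39 in SBM, with 6 and 4 probes called higher, and 0.07 in CV, 0.15 in KM and 0.11 in CU. In SC 7 of 10 were called higher and 1 lower, and in SBM 6 higher and 1 lower. RL4, a large subunit protein, was the leading one. Its log2 levels were 10.63, 11.00 and 11.50 in SC and 10.98, 11.37 and 11.64 in SBM, against 9.45, 10.35 and 10.85 in FM. All SBM fish and 7 of 10 SC fish were above every FM fish. RL4 differed from FM by 0.73 ± 0.15 in SC, 0.95 ± 0.16 in SBM and 0.48 in CU, where the call was lost without FM fish 3, the fish with the value of 9.45. A probe annotated RL4B, of the same protein family and much brighter, had 0.37 ± 0.12 in SC and 0.42 ± 0.13 in SBM. The large subunit proteins RL11, RL35A and RL36L had 0.43 to 0.47 in SC, where all 3 were called, and 0.38 to 0.41 in SBM, where RL35A was.

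RL21 was called in KM (0.43), SC (0.51) and SBM (0.72), with log2 levels in SBM of 11.40, 11.65 and 11.91 against 10.46, 10.94 and 11.29 in FM. In KM its call was lost under 5 alternatives, the 75th percentile scaling among them. The small subunit proteins RS12 and RS21 are among the brightest probes. RS12 had 14.94, 15.16 and 15.33 in SC and 14.81, 15.14 and 15.48 in SBM, against 14.10, 14.61 and 14.81 in FM, without overlap between SC and FM or SBM and FM. RS12 had a log2 FC of 0.59 ± 0.11 in SC and 0.57 ± 0.13 in SBM, and that of RS21, which overlapped with FM, was 0.47 ± 0.11 and 0.50 ± 0.12.

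Probes for 2 ribosomal proteins were lower. RL22L, a paralog of the large subunit protein RL22, had 11.21, 11.56 and 11.68 in SC and 11.19, 11.37 and 11.55 in SBM, against 11.55, 11.88 and 12.14 in FM, and all SBM fish lay below all FM fish. It was called in SBM (−0.53 ± 0.11) and not in SC (−0.36 ± 0.10). RS30, made as a fusion with a ubiquitin-like protein, was called in SC (−0.44 ± 0.10) and not in SBM (−0.36 ± 0.11), with 12.54, 12.81 and 13.07 in SC and 12.54, 12.96 and 13.24 in SBM, against 12.95, 13.21 and 13.56 in FM. Within diets neither followed the other ribosome probes. The correlation with the mean of the other 9 was 0.01 for RL22L and −0.35 for RS30 over 57 fish, against 0.90 for RS12.

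Over the 52 probes, every SC fish was above every FM fish for 9 and below for 1, and every SBM fish was above for 13 and below for 2. Among all probes tested the shares were 2.09% above and 2.57% below in SC, and 5.06% above and 2.86% below in SBM, where the group is smaller. In CV, CU and KM none of the 52 was free of overlap with FM, and of all probes 0.191% lay above and 0% below in CV, 0.0829% above and 0.0414% below in CU, and 0.448% above and 0.0995% below in KM.

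For each fish a pathway score was taken, the mean over the probes of a pathway of the log2 level minus the FM mean, with the falling probes included. The tRNA charging score averaged 0.57 ± 0.23 in SC, 0.46 ± 0.12 in SBM, 0.28 ± 0.16 in CV, 0.25 ± 0.19 in KM and 0.18 ± 0.21 in CU, with an SD of 0.19 in FM around its mean of 0 (SD, n = 10 each and 7 in SBM). For biogenesis it was 0.42 ± 0.19 in SC and 0.42 ± 0.13 in SBM, and for the ribosome 0.32 ± 0.07 and 0.34 ± 0.12. Set against the FM mean without FM fish 3, the tRNA charging score averaged 0.51 in SC, 0.41 in SBM, 0.23 in CV, 0.20 in KM and 0.13 in CU, the biogenesis score 0.36 in SC and 0.36 in SBM, and the ribosome score 0.30 in SC and 0.32 in SBM. The neighbouring groups SC and SBM differed by less than their spread in all 3 pathways. The ribosome score of every SC fish and every SBM fish exceeded that of every FM fish, while CV, CU and KM overlapped with FM in all 3 scores. For tRNA charging, 6 CV, 3 CU and 4 KM fish, of 10 each, exceeded every FM fish. In the same order the counts were 5, 4 and 5 for biogenesis and 3, 3 and 6 for the ribosome. On each of the 2 scan days the differences from FM had the same sign. They were larger, in every diet and pathway, on the day that held both FM fish 3 and FM fish 4, and the reason was not tested. For tRNA charging they were 0.54 on the other day and 0.62 on that day in SC. In the same order they were 0.33 and 0.59 in SBM, and 0.16 and 0.40 in CV. KM had 0.15 and 0.35, and CU 0.07 and 0.30.

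**Figure D3:**
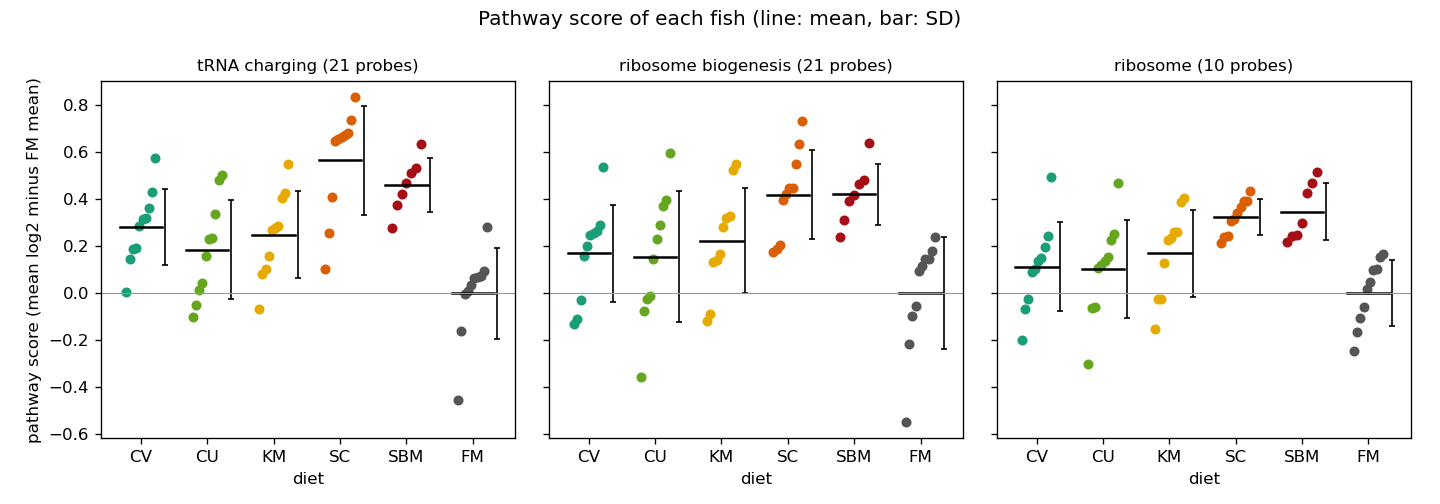
Points give the pathway score of each fish, the mean log2 level over the probes of a pathway minus the FM mean, by diet, with a line for the mean and a bar for 1 SD on either side. SC and SBM have the highest means in each pathway, and the lowest point in the first 2 panels is FM fish 3.

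Within diets the probes of a pathway moved together across fish. After taking off the mean of each diet, the median correlation between probe pairs was 0.47 for tRNA charging, 0.61 for biogenesis and 0.48 for the ribosome, over 57 fish, while the mean over all pairs of probes tested was 0.15. All 120 pairs among the 16 cytoplasmic ligases that were higher had r above 0, but these were picked for their rise in SC. Over all pairs of a pathway the share was 94.8% for tRNA charging, 94.3% for biogenesis and 75.6% for the ribosome. That share was not counted over all probes tested. Pairs of 1 tRNA charging and 1 biogenesis probe had a median of 0.45. The points share arrays, and the quality of the array went with the scores. Within diets the number of spots set to missing had r = −0.70 with the tRNA charging score, −0.57 with biogenesis and −0.40 with the ribosome, and r = −0.62, −0.46 and −0.31 without the 2 most extreme arrays. Its part in the co-variation was not tested. The number differed little between SC, SBM and FM (medians of 2156, 2068 and 2094), was lower in CV (1762) and KM (1811) and higher in CU (2298). With that number as a covariate, 41 of the 52 probes were called in SC and 26 in SBM, and the tRNA charging median was 0.67 in SC, 0.45 in SBM and 0.12 in CV. The share of all probes called in that fit was not counted, and nothing is read from these counts.

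**Figure D4:**
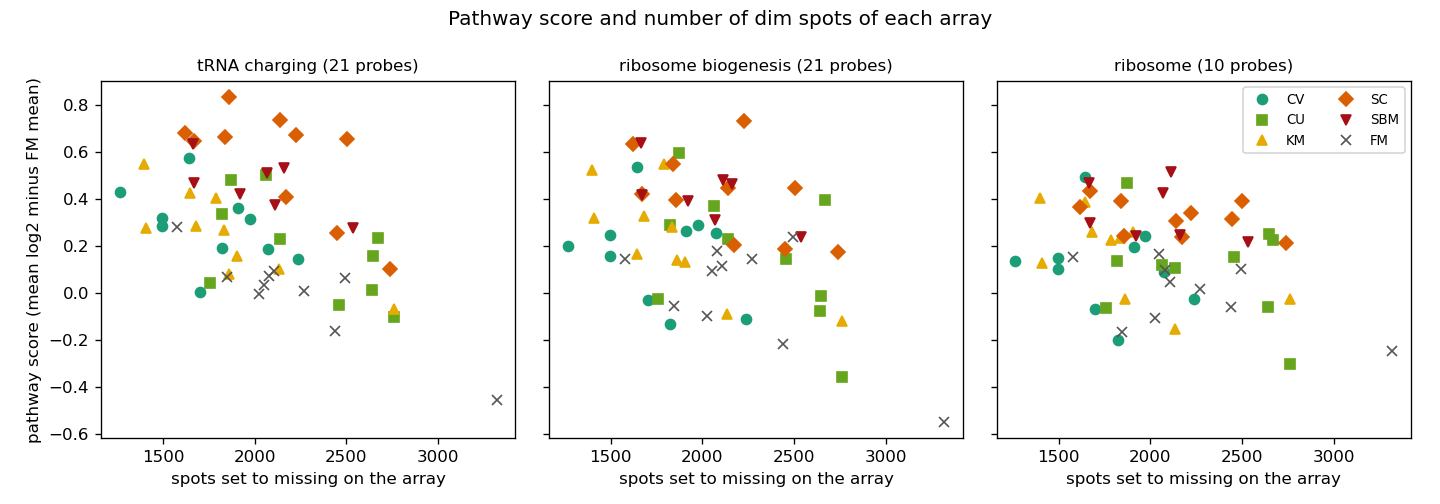
Each point is 1 array, with the number of spots set to missing on the horizontal axis and the pathway score on the vertical axis, in symbols by diet. Scores fall toward arrays with more missing spots, and FM fish 3 stands alone at 3320.

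The labels give each fish scores for lamina propria, epithelium, atrophy and oedema of the distal intestine. Their sum was 0 in all FM fish and reached 8, with medians of 8 in SBM, 7 in SC, 5.5 in KM, 0.75 for CU and 0 for CV. Whether the genes followed the histology of single fish within a diet is a question that the choice of the probes did not use. In CV, fish 7 was the only one with a sum above 1. Its sum was 7, and it had the highest CV score in all 3 pathways, 0.57, 0.54 and 0.50. In CU the fish with the highest sum, fish 4 with 6, had the highest biogenesis (0.59) and ribosome (0.47) scores, and CU fish 3, with a sum of 0, had the lowest score in all 3. The array of CU fish 3 had the most missing spots of its group, 2762. In SC, fish 1 and fish 10 had the lowest sums, 1.5 each, and parted ways. SC fish 1 was lowest in all 3 pathways (0.10 for tRNA charging), while SC fish 10 had a tRNA charging score of 0.64 and the highest ribosome score of the group, 0.43. The array of SC fish 1 had the most missing spots of its group, 2738, and that of SC fish 10 had 1670. In SBM, fish 5 was the only one with a sum below 8. Its sum was 6, and it had the lowest SBM score in all 3 pathways, 0.27, 0.24 and 0.22. The array of SBM fish 5 had the most missing spots of its group, 2535.

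Fitted over all fish with diet in the model, 47 of the 52 slopes on the histology sum were above 0, against 62.4% of all probes. No probe of the 12065 had an adjusted p under 0.05 in limma, and 39 of the 52 had an unadjusted p under 0.05, as had 17.4% of all probes. The median slope of the 52 was 0.05 log2 units per point of the sum. Without CV fish 7 the number with an unadjusted p under 0.05 was 24 of 52, beside 12.5% of all probes. With the lamina propria score alone, 7 of the 52 were called, all with slopes above 0, and 2.98% of all probes were. They were SYYC (0.34 ± 0.07 per point, adjusted p = 0.021), SYAC, SYSC, SYCC, SYWC, SYFA and the ribosomal RL4. Only 1 of the 52 was called without CV fish 7, where 26 of all 12065 probes were, against 360 with it. With the number of missing spots in the model, 0 of the 52 and 1 of all probes were called. There 30 of the 52 had an unadjusted p under 0.05, as had 16.9% of all probes.

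The slopes fitted in single diets differed in sign, but no difference of KM from another diet was called for any of the 52. Above 0 were 47 of 52 in CV, 48 in CU and 45 in SC, but 7 in KM, while the share over all probes was 58% for CV, 65.2% for CU, 60.9% for SC and 30.6% for KM. In KM the fish with a sum of 7 included fish 10, the lowest of its diet in tRNA charging (−0.07) and biogenesis (−0.12), and fish 5, with a sum of 4, had 0.55 and 0.52. The array of KM fish 10 had the most missing spots of its group, 2760, and that of KM fish 5 the fewest, 1398. The difference between the KM slope and the CU slope had an unadjusted p under 0.05 for 26 of the 52 and for 14.3% of all probes, and limma called it for none after adjustment (smallest adjusted p of the 52 = 0.18). The number of spots set to missing had r = 0.32 with the histology sum in KM and −0.40 in CU (10 fish each), and its part was not tested in this contrast. Between KM and CV the slopes differed at an unadjusted p under 0.05 in limma for 10 of the 52 and 5.66% of all probes. Between KM and SC these were 4 of the 52 and 2.83%. The joint F test of KM against CV, CU and SC gave 9 of the 52 and 6.97%. After adjustment none of the 52 was called in these tests (smallest adjusted p in the joint test = 0.64).

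**Figure D5:**
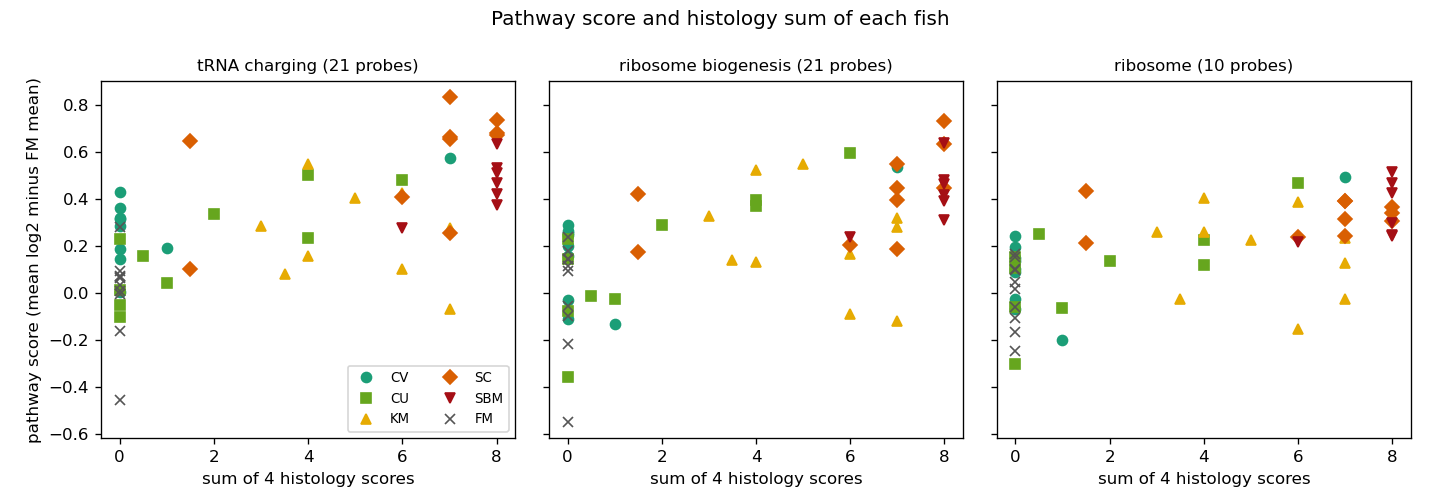
Pathway score of each fish against the sum of its 4 histology scores, in symbols by diet. CV fish 7 stands at a sum of 7 with the highest CV score in each panel, and the KM triangles do not climb with the sum.

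Other genes of protein synthesis could be named only where the study's DE lists hold them, so they too were chosen on these contrasts. Of 22 further probes for ribosome biogenesis, 19 were called higher and 1 lower in SC, and 17 higher and 1 lower in SBM, with nucleolin (NUCL, 0.96 in SC and 0.80 in SBM at 1 of 3 probes), nucleophosmin (NPM, 0.70 and 0.52 at 1 of 2) and RRP12 (0.73 and 0.78) among them. The 1 called lower was the second NOL6 probe. All 15 probes for mitochondrial ribosomal proteins were called higher in SBM and 7 of them in SC, with medians of 0.54 in SBM and 0.39 in SC, an order opposite to that of the tRNA charging probes. Of 22 probes for translation factors, 16 were called higher and 1 lower in SC, and 14 higher and 1 lower in SBM.

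Of 7 named probes for transcripts that respond to amino acid shortage, 3 were called higher in SC than in SBM. In mammals many of them are driven by the factor ATF4, as are many cytoplasmic tRNA ligases. Against FM all 7 were called higher in SC, only CEBPB in SBM, 1 of the 7 in KM, and none in CV or CU. Their median log2 FC was 0.98 in SC, 0.29 in CV, 0.27 in SBM, 0.25 in KM and 0.17 in CU. CHAC1, a glutathione-degrading enzyme, had log2 levels of 10.37, 11.79 and 12.61 in SC, against 10.06, 10.11 and 10.46 in SBM. These 7 probes could be named only from the DE lists, which the contrast of SC with FM helped to fill. Their contrast of SC with SBM is therefore a description, without a test. In it SC was higher by 1.38 ± 0.20 for CHAC1 and by 1.24 ± 0.21 for ATF5. For SERA, the first enzyme of serine synthesis, the difference was 1.19 ± 0.21. The difference was not called for SERB (0.69 ± 0.18), ATF4 (0.54 ± 0.15), ASNS (0.13 ± 0.10) or CEBPB (0.15 ± 0.14). SERB and ATF4 were called under 5 alternatives each. Over all probes 0.149% were called higher in this contrast, and nothing is read from that share.

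Among the 10 SC fish the correlation with the tRNA charging score was 0.85 for ATF5, 0.79 for ASNS, 0.76 for SERA, 0.70 for ATF4, 0.66 for SERB, 0.65 for CHAC1 and 0.42 for CEBPB. With the biogenesis score it was between 0.29 and 0.49 for all but CEBPB (0.73), and with the ribosome score between −0.11 and 0.10 for all but CEBPB (0.68). Over all 57 fish, with the diet means taken off, the 7 correlations with tRNA charging were lower, at 0.28 for CHAC1, 0.33 for CEBPB, 0.41 for ASNS, 0.44 for ATF5, 0.51 for ATF4, 0.61 for SERA and 0.65 for SERB. With the ribosome score they ran from −0.13 for CHAC1 to 0.56 for SERB, and SERB had 0.66 with biogenesis. The points share arrays, and the differences between these correlations were not tested.

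Markers of cell types could also be named only where the DE lists hold them, so markers that did not change were not seen. Those named did not all move in the way of the 52 probes. The 4 named enterocyte probes (APOA4, APOA1 and FABPI) were called lower in SC, and 3 of them in SBM, and the log2 of their summed intensities ran from 14.17 to 16.59 in SC fish, from 14.69 to 17.28 in SBM fish and from 16.94 to 17.80 in FM fish. Of the 3 smooth muscle probes (MYH11 and DESM), 3 were called higher in SC, 2 in KM, 1 in CV and none in CU or SBM, with median log2 FC of 0.79 in SC, 0.65 in KM, 0.56 in CV, 0.12 in CU and 0.05 in SBM, and their sums were 12.82 to 13.99 in SC fish, 11.73 to 13.34 in SBM fish and 11.66 to 13.59 in FM fish on the log2 scale. Of 5 probes for proliferation 3 were called higher in SC and SBM, both for cyclin B1 (CCNB1) and the one for cyclin A2 (CCNA2), and TOP2A was called lower in SC, with sums of 11.97 to 12.61 in SC, 11.92 to 12.52 in SBM and 11.21 to 12.29 in FM. The single leukocyte probe, HG2A, was called lower in SBM. The paper's histology describes leukocytes gathering in the lamina propria of fish fed SBM, which is what the lamina propria score grades. This 1 probe is therefore not read as the number of leukocytes. None of the markers was at 0. The part of the cell mixture in the values of the 52 probes was not tested.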

How the data were processed

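For each of 57 arrays the authors deposited Agilent Feature Extraction spot intensity values, background subtracted and not normalized between arrays. Their normalized log2 values were also deposited and served as an alternative. Following the methods of the study, control spots (536 of 15377) and spots that were dim or uneven were left out (1264 to 3320 per array), and the rest were brought to a common distribution (quantile normalization) on the log2 scale. A probe was dropped when over 15% of its values were missing, and 4245 values (0.617%) were imputed from 10 neighbours. This left 12065 of 14841 probes. The 2 sets of values had r of at least 0.995 on the same array. The number of arrays limits the precision.

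One limma (version 3.58.1, R 4.3.3) model with diet was fitted to all arrays and tested on simulated data. Contrasts with FM used the nested F method with Benjamini-Hochberg adjustment, those with SBM and slopes on histology the moderated test with adjustment over all probes. More probes were called in CV and KM against FM than the study reported. Diets were taken from the letter in each sample's title. Members and gene lists were chosen with earlier results of these data known. Values are given for the members with the largest mean log2 FC in SC and SBM in each pathway (5, 5 and 4), those below FM in both, those with a second probe, the largest in CV, CU and KM, and those nearest to the limit. Others named in the text were chosen after their values were seen. Gene names were taken from the study's lists, which gave 2331 probes a name. The lists' columns of fold changes and p-values were not used. The normexp alternative used median spot signals with an offset of 50. Other alternatives changed the scaling, the filter on dim spots, the imputation, the blocks, the samples, the limits and the histology score. No column of samples outside these 57 was present. Sequences of the probes were not used here.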

Additional observations from a re-analysis of the deposited data

Results flagged for a closer look

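In 168 groups of fish (28 probes or scores in 6 diets), the lowest or the highest fish was set against its nearest neighbour and the range of the group (Dixon's test). Chance alone flags about 1 in 20 groups, and 5 were found, each with a fish far below the others of its diet. SYFB was 10.17 in CV fish 9, against 11.12 in the next fish. SYFB was also low in CU fish 10, with 10.18 against 10.98. PWP2 was 10.28 in CU fish 3, against 10.81. RBM28 was 4.71 in FM fish 3, against 5.80, on the array with the most spots set to missing. RL22L was 11.21 in SC fish 5, against 11.50. None of the pathway scores had such a fish. The low cluster of CSK2B was not found by this test, since each diet that held a low fish held at least 2.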

How the results depend on the processing

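The counts of the 52 probes called stayed within 1.5 times under every alternative in SC (33 to 45, against 42) and in SBM (23 to 39, against 34), and no direction of a called value turned. For most alternatives the number of all probes called against FM or SBM was not counted. The same contrasts chose the 52, so nothing is read from their counts. The small counts moved. In CV, where 3 probes were called, the count was 1 with the 75th percentile scaling, without the filter on dim spots, in the deposited values and after subtracting the median over all probes, 0 with normexp, 5 with adjustment per contrast and 9 without the log2 FC limit. In CU, where 2 were called, it was 4 without the dim filter, 1 with FM and the diet alone and 5 without the limit. In KM, where 3 were called, it was 6 without the limit. The tRNA charging median in CV, 0.28, was 0.11 after that subtraction.

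Against SBM, CV had 7 called, CU 7 and KM 5. With the 75th percentile scaling these were 18 in CV and 10 in KM, without the dim filter 14 in CV and 8 in KM, in the deposited values 14 in CV and 8 in KM, and with the median subtracted 20 in CV, 2 in CU and 9 in KM. Normexp gave 3 in KM and slide as a block 4 in CV.

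Of the other probes of protein synthesis, CV had 7 called, CU 3 and KM 6. These were 2 in CV with the 75th percentile scaling. With normexp they were 2 for CV, 1 for CU and 2 for KM, in the deposited values 4 for CV, 5 for CU and 3 for KM, without the dim filter 3 in CV and 5 in CU, with the median subtracted 0 in CV and 2 in KM, and with adjustment per contrast 1 in CU. On histology within diets, where 0 of the 52 were called, 2 were in the deposited table (0.68% of all probes) and 7 with the lamina propria score (2.98%).

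Chosen after seeing the data, the number of missing spots as a covariate gave 1 probe in CV and 1 in KM against FM, 19 in CV, 4 in CU and 12 in KM against SBM, and for the other probes 1 in CV, 7 in CU and 3 in KM. Without FM replicate 3, also added later, CU had 1 of the 52, and the other probes had 0 in CU and 2 in KM. The lamina propria score without CV replicate 7 called 1 of the 52 and 26 of all probes. The cause of these changes was not tested.

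With the fish number as a replicate block, 3, 2, 3, 40 and 30 of the 52 were called in CV, CU, KM, SC and SBM, and 2 in KM against SBM, where 5 were called without it. Fish of 1 number in different diets correlated by 0.06 on average (lowest −0.38), and no label says what a number marks. Fish of 1 number also share a slide within FM, SBM and CU and within SC, CV and KM (fish 1 to 9), and fish of different diets on 1 slide correlated by 0.09. Number and slide can thus not be fully told apart, and 19 of 57 fish correlated best with a fish of their own number. No single fish is repeated, so the error holds biological and technical spread together. Dim probes (SYTC2, PSTK, SYIC) depend most on the background correction.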
